A study of Mus musculus with 6 samples.

Results

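Macrophage polarization genes were followed in aortas of mice with and without apolipoprotein E. The members were the 9 genes Arg1, Arg2, Nos2, Retnla, Il10, Il10ra, Il4ra, Irf4 and Irf5, found by their symbol in the deposited probe table. Each had 1 probe, so that 9 of 35027 measured features, and 9 of 25721 with a gene symbol, were described. The 6 aorta samples were each run on 1 array, where the Cy5 channel held the RNA of that aorta and the Cy3 channel a shared reference, RNA of wild type C57BL6 control aorta, 24 weeks old, on a high-fat diet. The ApoE KO group held 3 aortas of mice labelled 32 weeks old, and the wild type (WT) group held 3 aortas of mice with the genotype label C57BL6, labelled 24 weeks old. Per the labels, all 6 mice ate a high-fat diet for 16 weeks from an age of 8 weeks, which does not add up to 32 weeks, and lesions were seen in the ApoE KO aortas and not in the WT aortas. The labels also give the background of all 6 aortas as C57BL6 db/+ and name each Cy5 source as db/+ of 9 weeks, which goes against the ages above, and WT replicates 2 and 3 carry the same source number. The deposited intensity table heads 3 of its 6 arrays with a vehicle and 24 weeks of high-fat diet, which no label repeats. Genotype thus cannot be told apart from age, time on the diet or a vehicle, and neither the sex of the mice nor any pooling is stated.

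Macrophages change their gene expression with the signals they meet. Microbial products and interferon gamma induce the inducible nitric oxide synthase Nos2, which makes nitric oxide from arginine, in a programme called classical activation, with Irf5 among its transcription factors. Interleukin 4 and interleukin 13 act through Il4ra and Stat6 and induce Arg1 and Retnla in mice, with Irf4 among the factors of that alternative activation, while interleukin 10 acts through Il10ra and Stat3 and restrains inflammation. In plaques both programmes are known to occur side by side, and several of these genes are also used by cells other than macrophages.

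Of the 9 genes, 3 rose in ApoE KO aortas and 0 fell at an adjusted p under 0.05: Il10ra by 3.73-fold, Irf5 by 2.82-fold and Nos2 by 1.74-fold. Over all 35027 features 14.7% were called, 6.73% higher and 8% lower. The other 6 genes (Arg1, Arg2, Retnla, Il10, Il4ra and Irf4) did not pass. The median log2 fold change of the 9 genes was 0.21, beside -0.02 over all features. All values are log2 ratios of an aorta's RNA to the common reference, and fold changes are ApoE KO over WT with the standard error (SE) of a limma fit over all features, with Benjamini-Hochberg adjustment and n = 3 per group. Values of the 3 aortas without ApoE and the 3 WT aortas did not overlap for 4 of the 9 genes, Arg2 being the fourth, and such separation was found for 29.3% of all features, 11% with the ApoE KO values higher. Since whole aortas were measured, more macrophages and more RNA per cell cannot be told apart.

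**Figure D1:**
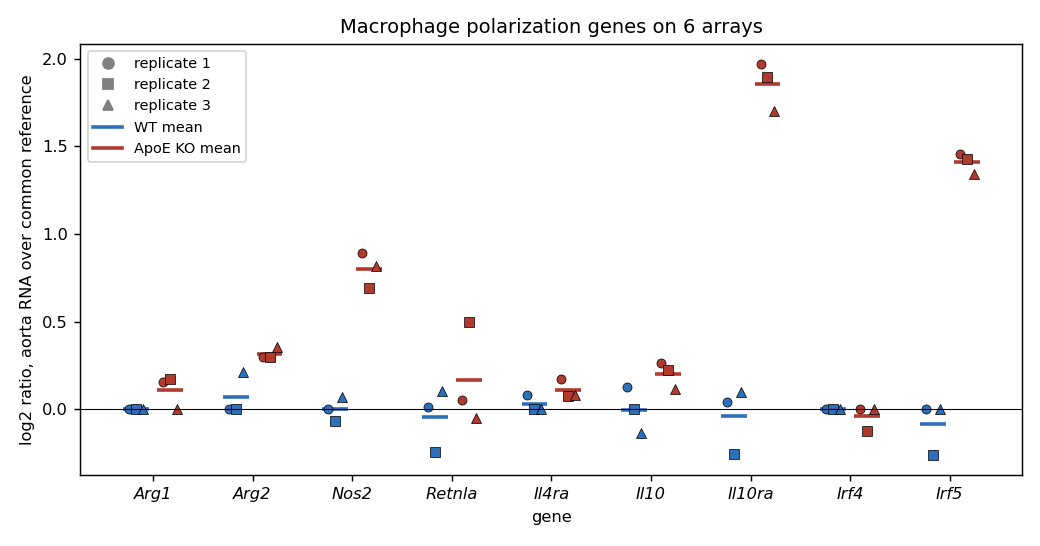
Log2 ratio of aorta RNA to the common reference (vertical axis) for the 9 polarization genes (horizontal axis), with 1 point per array, marker shape for the replicate and a bar for the mean of each group. Il10ra, Irf5 and Nos2 stand apart in the ApoE KO arrays, between 0.69 and 1.97, while the WT points of all 9 genes lie between -0.26 and 0.21.

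Brightness set how far each gene could be resolved. The deposited intensities are in arbitrary units rounded to steps of 0.01. The level of a probe is the average of 2 values. They are its mean reference intensity on the 3 WT arrays, and that intensity times its mean unlogged ratio over all 6 arrays. A gene raised in the ApoE KO arrays thus also has a higher level, and can reach a level limit through those arrays. Retnla (level 5.00), Il10ra (2.91) and Irf5 (1.31) were bright enough that 1 rounding step moved the log2 ratio by at most 0.015. Nos2 (0.253) and Arg2 (0.251) lay above the median level of all features, 0.144, and 1 step was worth 0.066 and 0.061 on the log2 scale. Il4ra (0.174) lay above that median too, with a step of 0.082. Il10 (0.111), Irf4 (0.103) and Arg1 (0.0986) lay below it, with a step of 0.13, 0.13 and 0.14. No level is set against another as an amount of transcript, since probes differ in their response. A summed level, given below for some marker lists, adds each marker's reference intensity times its unlogged ratio on an array. Bright probes weigh most in it, and it is compared only between arrays.

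**Figure D2:**
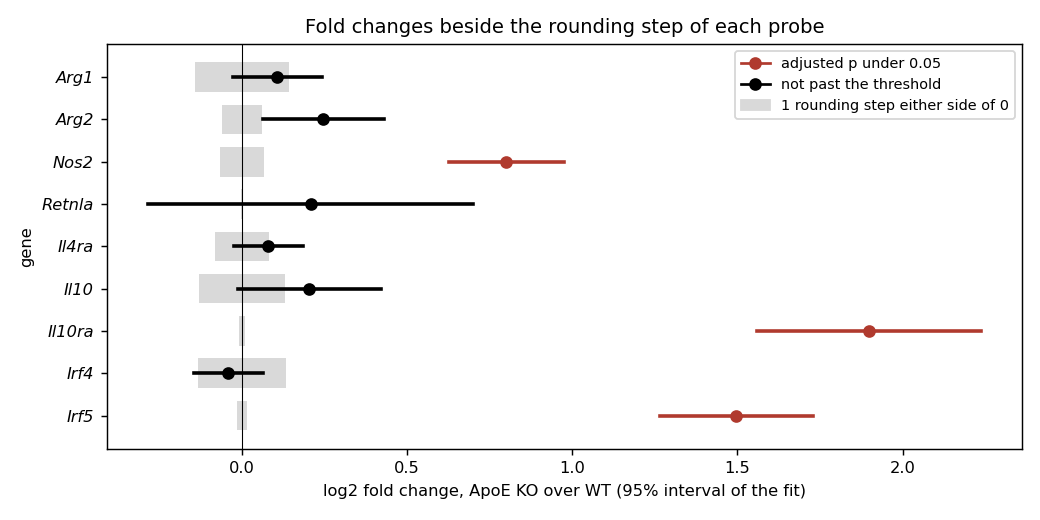
Log2 fold change, ApoE KO over WT (horizontal axis), of each polarization gene (vertical axis), with a point for the estimate and a line for its 95% interval. Grey bands span 1 rounding step of that probe on either side of 0. The estimates of Arg1, Il4ra and Irf4 fall inside their bands, and those of Il10ra, Irf5 and Nos2 lie far outside.

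The arginine enzymes were taken first. Nos2, the inducible nitric oxide synthase (probe for NM_010927), gave 0.89, 0.69 and 0.82 on the log2 scale in ApoE KO aortas 1, 2 and 3. In WT aortas 1, 2 and 3 it gave 0, -0.07 and 0.07. The lowest ApoE KO value stood well above the highest WT value. The log2 fold change was 0.80 ± 0.07 (SE), with an adjusted p of 0.00328 and a 95% interval from 0.63 to 0.98. At the reference intensity of its probe, 0.213, this difference equals 15.8 rounding steps. With 1 array left out in turn, the log2 fold change of Nos2 ran from 0.76 to 0.85 and stayed past the threshold.

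Arg1, the arginase of the cytosol that competes with nitric oxide synthases for arginine, was measured at the edge of the scale (probe for NM_007482). Its log2 ratio was 0.15, 0.17 and 0 in the ApoE KO arrays and 0 in all 3 WT arrays. The reference intensity was 0.10, 0.10 and 0.09 on the 3 WT arrays. The ApoE KO mean differed from WT by 0.75 rounding steps. The log2 fold change of 0.11 ± 0.05 had an adjusted p of 0.254 and an interval from -0.03 to 0.24. Without ApoE KO replicate 3, the array at 0, Arg1 passed with a log2 fold change of 0.16 and an adjusted p of 0.00332, and the values left were 2 near-equal ratios against 3 zeros.

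Arg2, the mitochondrial arginase that many tissues express, had log2 ratios of 0.30, 0.30 and 0.35 in the ApoE KO arrays (probe for NM_009705). The WT arrays were at 0, 0 and 0.21. The groups did not overlap, and WT replicate 3 lay closer to the ApoE KO values than to the other WT values. The log2 fold change was 0.25 ± 0.07, an adjusted p of 0.0918 with an interval from 0.06 to 0.43, and it equals 4.55 rounding steps. The call of Arg2 depended on the setting: it passed without WT replicate 3 (log2 fold change 0.32, adjusted p = 0.00722), with array weights (0.31, adjusted p = 0.014), with WT replicates 2 and 3 averaged (0.26, adjusted p = 0.0407), and when testing was limited to the 14452 features whose level reached 0.2 (adjusted p = 0.026, where 36.9% of features were called). With quantile normalization, where 4.71% of all features were called, it was at 0.13 with an adjusted p of 0.62.

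Of 28 other genes of arginine uptake and metabolism, 8 rose and 4 fell, beside 6.73% and 8% of all features. The median log2 fold change of the 28 genes was 0.04. The 12 calls became 6 without ApoE KO replicate 1, 7 without ApoE KO replicate 3 or WT replicate 2, and 1 after quantile normalization. In the fit limited to features of level at least 0.5, where 43.4% were called, 5 of 16 arginine genes were called higher and 6 lower. Slc7a7, the light chain of a transporter of cationic amino acids, rose by 1.29 ± 0.06 on the log2 scale, and its heavy chain partner Slc3a2 by 0.39 ± 0.05. Ddah1, which degrades the endogenous nitric oxide synthase inhibitor asymmetric dimethylarginine, rose by 0.55 ± 0.06. After quantile normalization Slc3a2 and Ddah1 no longer passed (adjusted p = 0.0732 and 0.152). The neuronal synthase gene Nos1 was called at 0.06 ± 0.005, which is 1 rounding step on a probe whose WT ratios were all 0, and it did not pass among features of level at least 0.2 (adjusted p = 0.154). Its 2 dimmer probes gave 0.16 and 0. The 4 genes that fell were Oat, the ornithine aminotransferase that follows arginase (-0.39), Spr, the last enzyme of tetrahydrobiopterin synthesis (-0.26), Gamt of creatine synthesis (-0.18) and Azin1, an antizyme inhibitor (-0.15). The calls of these 4 were lost on leaving out 5, 2, 4 and 5 of the 6 arrays in turn, with an adjusted p of up to 0.148, 0.0604, 0.0779 and 0.144. Slc7a2, the transporter that supplies arginine to activated macrophages, was at -0.06 (adjusted p = 0.495) on a dim probe of level 0.073, where 1 step is worth 0.18. Odc1, the polyamine enzyme downstream of arginase, was at 0.10 (adjusted p = 0.495). The argininosuccinate synthase gene Ass1 (0.05), Gch1, the first enzyme of tetrahydrobiopterin synthesis (0.07), and the endothelial synthase gene Nos3 (-0.04) did not pass either, and all had a level under 0.2.

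For the interleukin 10 pair, the receptor moved and the ligand could not be resolved. Il10ra, the chain of the interleukin 10 receptor that binds the ligand (probe for NM_008348), was at 1.97, 1.90 and 1.70 on the log2 scale in the ApoE KO arrays. The WT arrays were at 0.04, -0.26 and 0.10. The gap between the groups was the widest among the 9 genes. The log2 fold change of 1.90 ± 0.13 had an adjusted p of 0.00194 and an interval from 1.56 to 2.24. It ranked 76 from the top among 35027 features. Il10 itself (probe for NM_010548) was at 0.26, 0.22 and 0.12 in the ApoE KO arrays and at 0.13, 0 and -0.14 in the WT arrays. The groups of Il10 overlapped by 1 WT array, and the log2 fold change of 0.20 ± 0.08 (adjusted p = 0.214, interval from -0.01 to 0.42) equals 1.62 rounding steps.

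Around these receptors, 11 of 29 other ligands, receptors and signalling genes of interleukins 4, 13 and 10 rose and 2 fell. Over all features the shares were 6.73% and 8%. The median log2 fold change of the 29 genes was 0.11. After quantile normalization 8 were called, all of them higher. Il10rb, the shared second chain of the interleukin 10 receptor, rose by 0.97 ± 0.03. Its ratios were 0.99, 0.96 and 0.97 in the ApoE KO arrays against 0.06, -0.02 and -0.04 in the WT arrays, while a second, dim probe with a level of 0.043 gave 0.44. Socs3, a feedback inhibitor of cytokine signalling, rose by 1.51 ± 0.09, and Sbno2, a transcriptional co-regulator, by 0.84 ± 0.03. Bcl3, a nuclear partner of NF-kappaB, rose by 1.37 and the haem oxygenase gene Hmox1 by 1.58, both named after their values were seen. Interleukin 10 is known to raise these 4 genes, as are other stimuli. Nfil3, a transcription factor it is also known to raise, was at -0.25 (adjusted p = 0.244) on a dim probe, and Stat3 was at 0.13 (adjusted p = 0.114). The call of Socs3 was lost after quantile normalization (adjusted p = 0.0769).

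Il4ra, the signalling chain shared by the interleukin 4 and interleukin 13 receptors (probe for M27959), had log2 ratios of 0.17, 0.07 and 0.08 in the ApoE KO arrays. In the WT arrays they were 0.08, 0 and 0. The groups overlapped, and the difference of 0.08 ± 0.04 (adjusted p = 0.26, interval from -0.02 to 0.18) amounts to 0.99 rounding steps. Its partner chains moved more: Il2rg, the common gamma chain, rose by 1.22 ± 0.10 and Il13ra1, which pairs with Il4ra to bind interleukin 13, by 0.68 ± 0.06. Of the kinases, Jak3, which binds the common gamma chain, was called higher at 0.27 ± 0.01, from 2.7 rounding steps on a probe with all WT ratios at 0, and a second Jak3 probe gave 0.05. Jak1 rose by 0.59 ± 0.06 on its brighter probe and was at -0.05 on the dimmer one. The ligands Il4 (0.11) and Il13 (-0.16) did not pass, nor did Stat6, and their probes had levels of 0.087, 0.057 and 0.0568. The 2 genes that fell were Irs2, an adaptor of the insulin and interleukin 4 receptors (-0.58 ± 0.08), whose call was lost without 1 of the arrays (adjusted p = 0.0674 without ApoE KO replicate 3), and Il20, a cytokine of the interleukin 10 family (-0.09, or 1.2 rounding steps below 0, lost without 4 of the arrays in turn).

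Retnla, the secreted protein RELM-alpha that marks interleukin 4 responses in mouse macrophages, was the brightest probe of the 9 and showed no common shift (probe for NM_020509). Its log2 ratio was 0.05, 0.50 and -0.05 in ApoE KO replicates 1, 2 and 3 and 0.01, -0.25 and 0.11 in WT replicates 1, 2 and 3. ApoE KO replicate 2 was the highest array and WT replicate 2 the lowest, and the other 4 arrays were mixed between the groups. The log2 fold change was 0.21 ± 0.19 (adjusted p = 0.495), with an interval from -0.28 to 0.70. Without ApoE KO replicate 2 it was 0.04, and no setting brought it past the threshold. Fat around the aorta is known to hold Retnla-expressing cells. Of the 13 adipocyte markers 0 were higher and 1 lower (Lep), beside 6.73% and 8% of all features. The call of Lep rests on -0.88 rounding steps, on a probe of level 0.094 whose WT ratios were all 0. The summed level of the 13 markers was 57.4 to 66.6 in ApoE KO and 53.1 to 64.9 in WT arrays. Their part in the spread of Retnla was not tested.

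The promoters of 4 of the 9 genes (Il4ra, Irf4, Irf5 and Retnla) were held in the RefSeq promoter table (GRCm38.p6). Shown are the 250 bases before the transcription start of Retnla, as the interleukin 4 target that did not pass, and of Irf5, as a gene that rose. Both are on the plus strand, 5′ to 3′, Retnla at chr16:48842359-48842608 and Irf5 at chr6:29526375-29526624. Capitals mark every match on either strand to 6 motifs: the TATA box TATAAA, the GC box GGGCGG, the STAT motifs of TTC and GAA with 4 or 3 bases between them, the PU.1 core GAGGAA and the IRF core of GAAA, 2 bases and GAAA. The STAT motifs read the same on both strands, and no matches overlapped.
Retnla: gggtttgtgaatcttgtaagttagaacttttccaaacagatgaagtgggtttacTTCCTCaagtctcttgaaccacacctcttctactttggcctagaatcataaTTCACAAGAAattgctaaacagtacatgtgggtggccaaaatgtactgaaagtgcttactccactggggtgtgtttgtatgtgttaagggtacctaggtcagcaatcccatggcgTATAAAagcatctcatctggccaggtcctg
Irf5: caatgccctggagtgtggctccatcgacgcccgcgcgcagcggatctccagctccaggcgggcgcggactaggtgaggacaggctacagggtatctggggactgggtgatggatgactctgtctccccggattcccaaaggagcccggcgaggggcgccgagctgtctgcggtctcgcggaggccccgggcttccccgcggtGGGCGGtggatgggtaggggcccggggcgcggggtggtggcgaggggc
The Retnla window held a STAT motif with a spacer of 4 bases, TTCACAAGAA, from 145 to 136 bases before the start. It also held a TATA box from 30 to 25 bases before the start and a PU.1 core on the opposite strand. The Irf5 window held 1 GC box and none of the other motifs, and its GC content was 72%, against 42.8% for Retnla and a median of 52.4% over 32851 promoter windows of that length. The STAT motif with a spacer of 4 bases occurred in 5.85% of those windows, that with 3 bases in 7.02%, the TATA box in 12.4%, the GC box in 32.7%, the PU.1 core in 23.3% and the IRF core in 2.98%. The matches describe letters in these windows and no binding was measured.

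The interferon regulatory factors differed from each other. Irf5, which drives inflammatory cytokine genes downstream of Toll-like receptors (probe for NM_012057), had log2 ratios of 1.46, 1.43 and 1.35 in the ApoE KO arrays. The WT arrays were at 0, -0.26 and 0. The ApoE KO values lay close together and far above all WT values. The log2 fold change was 1.5 ± 0.09, with an adjusted p of 0.0014 and an interval from 1.26 to 1.73. Irf4, the factor of alternative activation that plasma cells and dendritic cells also need (probe for NM_013674), was at 0, -0.13 and 0 in the ApoE KO arrays and at 0 in all WT arrays. Only 1 of its 6 ratios differed from 0, so the log2 fold change of -0.04 ± 0.04 (adjusted p = 0.495) rests on a single rounding step in ApoE KO replicate 2. Of 14 B and plasma cell markers, 4 rose (Cd22, Sdc1, Tnfrsf13b and Xbp1) and Pax5 fell, beside 6.73% and 8% of all features.

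Among 24 other IRF family members and partner genes, 8 rose and 2 fell, beside 6.73% and 8% of all features. The median log2 fold change of the 24 genes was 0.07. The 10 calls became 6 without ApoE KO replicate 1 or 2, 5 without ApoE KO replicate 3 and 2 after quantile normalization, and 16 with array weights (10 higher, 6 lower). Irf8, a factor of monocyte and macrophage development, rose by 1.74 ± 0.10, from ratios of 1.79, 1.69 and 1.66 in the ApoE KO arrays against 0.16, -0.18 and -0.04 in the WT arrays. The lymphoid and myeloid factor Ikzf1 rose by 1.04 ± 0.06, Batf3, a factor of dendritic cells, by 1.00 ± 0.07, and the adaptor Myd88, upstream of Irf5, by 0.33 ± 0.02. Spi1, which encodes PU.1, rose by 0.65 and Irf9 by 0.33. Irf1 (0.27, adjusted p = 0.1, with a second probe at -0.32), Irf2 (-0.01), Irf3 (-0.07) and Irf7 (0.41, adjusted p = 0.0748) did not pass. The genes that fell were Fkbp4, a co-chaperone of HSP90 (-0.23), and Spib, a relative of PU.1 (-0.20), whose second probe was at 0.47. Leaving out arrays in turn ended the call of Fkbp4 in 4 fits and that of Spib in 5. After quantile normalization the calls of Irf8 (adjusted p = 0.0576) and Ikzf1 (0.076) were lost.

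The wider programmes were then set beside the 9 genes. Of 27 other genes linked to alternative activation, 14 rose and 0 fell, beside 6.73% and 8% of all features. The median of the 27 genes was 0.33 on the log2 scale. The interleukin 1 receptor antagonist gene Il1rn was at 2.84 ± 0.08, the beta-glucan receptor Clec7a at 2.44 ± 0.10, the zinc finger factor Egr2 at 1.03 ± 0.06 and Myc at 0.44 ± 0.02. The change of Myc equals 5.0 rounding steps on a probe of level 0.152 whose WT ratios were all 0. The mannose receptor gene Mrc1 rose by 0.84 and Chil3, which encodes Ym1, by 0.72, whereas the lectin gene Clec10a was at 0.66 (adjusted p = 0.0585), Mgl2 at -0.15, Cd163 at 0.07 and Ccl22 at -0.04. The count of 14 became 7 without ApoE KO replicate 1, 8 without ApoE KO replicate 3. It was 9 when WT replicate 1 or WT replicate 2 was left out, or with WT replicates 2 and 3 averaged. After quantile normalization it was 4.

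Of 28 other genes linked to classical activation, 10 rose and 0 fell, beside 6.73% and 8% of all features. The median of the 28 genes was 0.24. Il6 was at 2.44 ± 0.12, the Fc receptor gene Fcgr1 at 1.43 ± 0.08, the costimulatory gene Cd80 at 1.31 ± 0.07 and Tlr2 at 1.02 ± 0.03, and the call of Fcgr1 was lost after quantile normalization (adjusted p = 0.138). Tnf did not pass at -0.09 (adjusted p = 0.1), nor did Il12b (-0.19), Il23a (-0.09) and Ido1 (-0.10). Of these, Il12b, Il23a and Ido1 had a level under 0.1. Both lists thus held genes that rose beside genes that did not pass, as the 9 genes did. The count of 10 was between 9 and 10 on leaving out an array and 3 after quantile normalization. Whether the lists differ from each other was not tested.

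**Figure D3:**
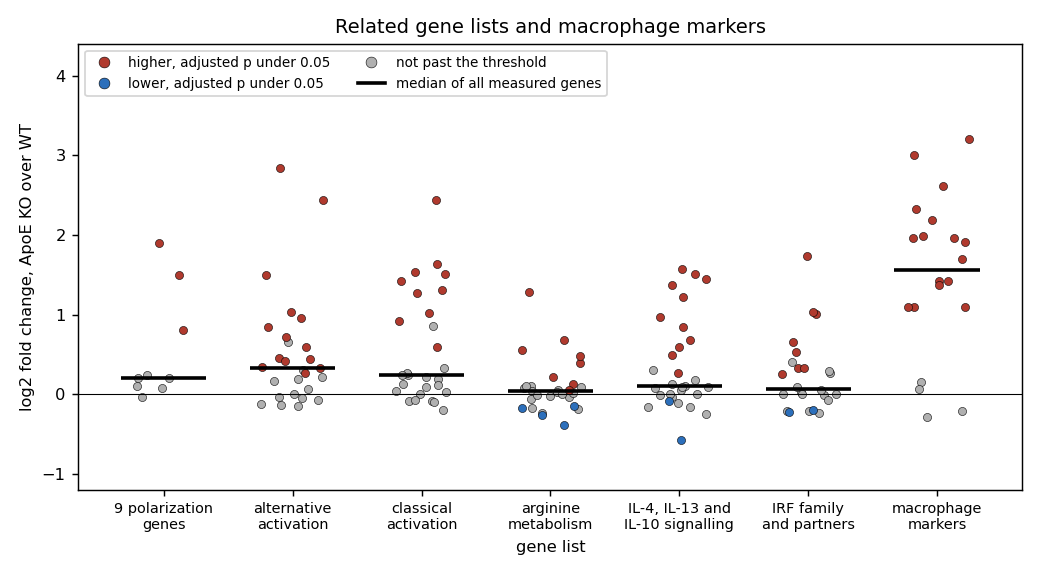
Log2 fold change, ApoE KO over WT (vertical axis), of every measured gene in the 9 polarization genes, 5 related lists and 20 macrophage markers (horizontal axis). Red and blue points passed the adjusted p threshold as higher and lower, grey points did not, and bars are medians, 0.21 for the 9 genes, 0.33 for alternative activation, 0.24 for classical activation and 1.56 for macrophage markers.

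Macrophage markers moved with the genotype. Of 20 markers, 16 rose and 0 fell, the median log2 fold change was 1.56, and their summed level was 434 to 501 in the ApoE KO arrays against 101 to 124 in the WT arrays. C1qa, Lgals3 and Gpnmb, the 3 brightest probes, made up most of that sum, and the other 17 markers summed to 145 to 161 against 30.3 to 36.3. The log2 fold changes of Il10ra (1.90) and Irf5 (1.5) lay near that median, that of Nos2 (0.80) lay below it, and those of Arg1, Arg2, Il10, Il4ra, Irf4 and Retnla were at most 0.25. Markers that did not pass were Cd68 (0.15), Mertk (0.06), Cx3cr1 (-0.21) and Itgam (-0.29). The Mertk probe had a level of 0.042, where 1 rounding step is worth 0.30 on the log2 scale. The counts of this paragraph stand beside 6.73% of all features called higher and 8% called lower. Of 11 dendritic cell markers 6 rose and 1 fell (Cd209a). Of 16 neutrophil, eosinophil and mast cell markers 3 rose (S100a8, S100a9 and Cxcr2) and 0 fell. Of 14 T and NK cell markers 2 rose (Il7r and Gzmb) and 0 fell. The call of Gzmb rests on 0.97 rounding steps, on a probe of level 0.066 whose WT ratios were all 0. Of 12 fibroblast markers 4 rose (Lum, Col1a1, Col3a1 and Ly6a) and 2 fell (Serpinf1 and Ogn). Endothelial markers rose in 4 of 15 (Vwf, Esam, Emcn and Sox17). Smooth muscle markers fell in 8 of 12, and their summed level was 392 to 447 in ApoE KO and 650 to 697 in WT arrays. The part that these shifts have in the values of the 9 genes was not tested.

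WT replicate 2 was the lowest WT array for 4 of the 9 genes, namely Il10ra (-0.26), Irf5 (-0.26), Retnla (-0.25) and Nos2 (-0.07). On that array the median log2 ratio of the macrophage markers was -0.12, against 0 and 0.06 on WT replicates 1 and 3. Beside 6.73% of all features that rose and 8% that fell, 1 of 12 cardiac muscle markers rose (Nppa) and 0 fell. Their median log2 ratio was -0.86 on WT replicate 2, and -0.61, 0.38 and 0.73 on ApoE KO replicates 1, 2 and 3. Without WT replicate 2, the log2 fold change was 1.79 for Il10ra, 1.41 for Irf5 and 0.77 for Nos2, and all 3 stayed past the threshold.

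Genes of like pattern were sought for Il10ra and Irf5, the members called with a log2 fold change of at least 1. Likeness was the root mean square difference of the 6 log2 ratios, over 8083 other named genes with a level of at least 0.5. Nearest to Il10ra were Fcgr3, a low-affinity IgG receptor (0.071), Acp5, the tartrate-resistant acid phosphatase (0.076), and the complement chain gene C1qb (0.081). Nearest to Irf5 were the receptor tyrosine phosphatase Ptpro (0.04), the integrin activator Fermt3 (0.041) and Pilra, a paired immunoglobulin-like receptor (0.054). These 6 genes had log2 fold changes between 1.48 and 1.97, and each was lowest on WT replicate 2. Both traits follow from choosing genes by likeness to Il10ra and Irf5 on the same arrays. The 6 arrays fall into 2 groups, so no correlation is given.

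**Figure D4:**
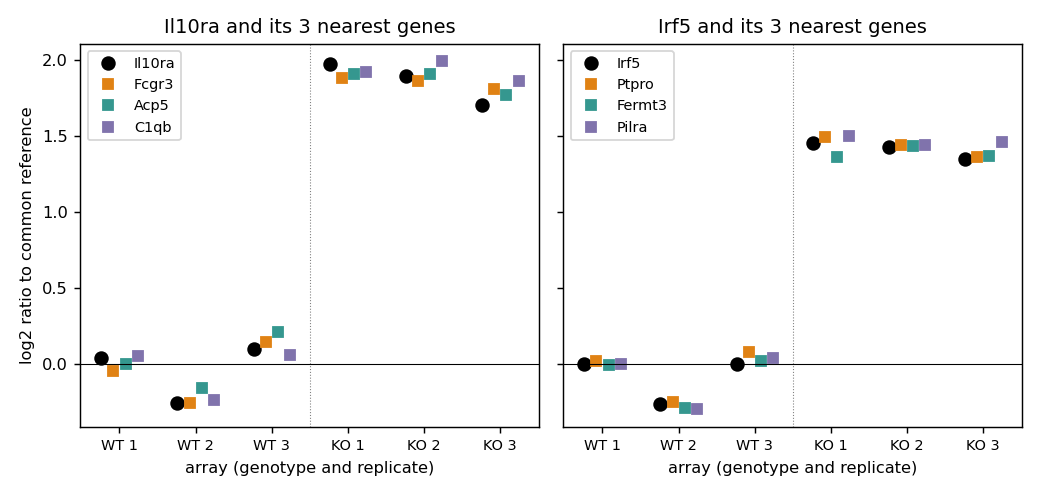
Log2 ratio to the common reference (vertical axis) on each array (horizontal axis) for Il10ra and Irf5 (black circles) and the 3 genes nearest to each (coloured squares). The 4 genes of a panel lie within a narrow band on every array, and all dip on WT replicate 2, which follows from their choice by likeness on these arrays.

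The calls were compared over all settings. Il10ra and Irf5 stayed past the threshold in 16 of 16 alternative settings and Nos2 in 15 of 15, with an adjusted p of at most 0.0378, 0.0326 and 0.0295. Quantile normalization, which gives all 6 arrays the same spread of ratios, gave the smallest log2 fold changes, 1.20 for Il10ra, 1.01 for Irf5 and 0.55 for Nos2. Since the reference was itself WT aorta RNA, ratios spread less on WT arrays (SD 0.075 to 0.135) than on ApoE KO arrays (0.24 to 0.264). Making these spreads equal shrinks differences between the groups, so smaller fold changes and lost calls in that setting follow in part from the setting itself. Among 9034 features of level at least 0.5, where 43.4% were called, 3 of the 9 genes could be tested, and Il10ra and Irf5 passed while Retnla had an adjusted p of 0.282. Il10, Irf4 and Retnla passed in no setting. Arg1 passed in 1 setting, Il4ra in 1 and Arg2 in 4.

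**Figure D5:**
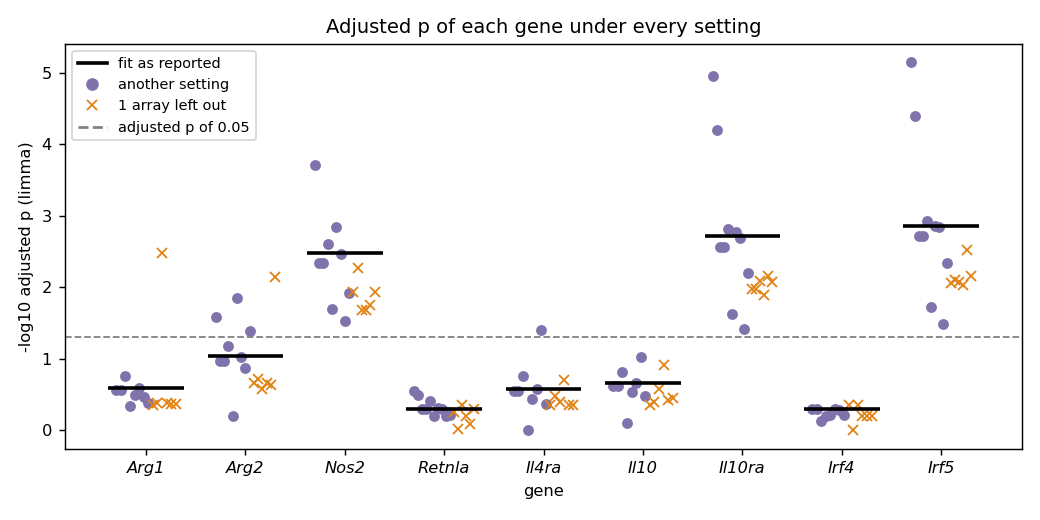
The -log10 of the adjusted p in limma (vertical axis) of each polarization gene (horizontal axis), with a bar for the fit as reported, circles for other settings, crosses for fits with 1 array left out and a dashed line at an adjusted p of 0.05. All points of Nos2, Il10ra and Irf5 lie above the line, and those of Retnla, Il10 and Irf4 lie below it.

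The targeted gene checked the labels: Apoe was lower in the ApoE KO aortas by 1.21 ± 0.13 on the log2 scale (adjusted p = 0.00649). Its signal in the ApoE KO aortas was still 0.433 of that in WT. Whether transcript or background made up that rest was not tested. A background in the intensities would also shrink the fold changes of dim probes such as that of Nos2. Within single arrays, the SD of the log2 ratio over all features was 0.24 to 0.264 in ApoE KO and 0.075 to 0.135 in WT arrays. That SD is a spread across features and not between replicates. The p values measure the spread between 3 arrays per group. If WT replicates 2 and 3, which share a source number, came from 1 source, the WT group would hold 2 independent samples. With those arrays averaged, Il10ra, Irf5 and Nos2 had adjusted p values of 0.00631, 0.00457 and 0.012.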

How the data were processed

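Aorta RNA of 3 ApoE KO and 3 WT mice was measured on 2-colour Agilent arrays, from 100 ng of total RNA amplified in repeated rounds per the labels' protocols. The submitters' processing notes name Agilent Feature Extraction 8.5.1.1, and the sources used here do not give the background correction, dye normalization or centring. The authors' values for 39556 probes are log10 ratios of Cy5 over Cy3. Scale and direction were checked on the deposited reference intensity of the 3 arrays headed C57BL6: multiplied by 10 to the power of a WT value, 99.9 to 100% of intensities from 0.2 to 1 fell on a rounding step (within 0.1 of a step), against 58.9 to 76.4% with the sign turned and 5.7 to 16.8% if read as log2 or natural log. The ApoE KO arrays carry the same dye labels. Of the 18 intensity and p-value columns that the deposited intensity table holds over its 6 arrays, 15 were not used. Of the deposited intensity values used, 99.99% lie on a step of 0.01, and 36.2 to 59% of ratios per array were exactly 0.

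Values were put on the log2 scale, 194 probes lacking a ratio on an array were dropped, and probes were named through RefSeq genes (GRCm38.p6). The brightest probe per symbol was kept, and groups were compared with limma 3.58.1 in R 4.3.3 (lmFit, eBayes, no block). The prior degrees of freedom were 0.557, beside 4 residual ones. The members and lists were chosen with earlier results of these data known, and 16 alternatives were run. Lists are described by counts and medians. Genes named from a related list are up to 4 called higher and 3 called lower in order of p, and others picked after their values were seen. For related and cell type lists, all members behind a count of 5 or fewer in the fit as reported are also named.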

Additional observations from a re-analysis of the deposited data

How the results depend on the processing

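Il10ra, Irf5 and Nos2 kept direction and call under every alternative that tested them, and the number of the 9 genes called was between 2 and 4, the lower figure where only features of level at least 0.5 were tested, which leaves out Nos2. The count of all features called was 5158, and it was 1651 after quantile normalization (871 higher, 780 lower) and between 3516 and 4901 on leaving out 1 array. With the replicate number of the titles as a replicate block it was 2582. Deviations from the group means correlated at 0.0776, -0.469 and -0.145 between arrays of the same number, and no ApoE KO array correlated best with the WT array of its number. Within a group these deviations cancel, so the correlations depend on each other. Whether the numbers mark pairs or a shared batch cannot be told from them. Under the block 5 alternative activation, 4 arginine and 6 IRF genes were called, Il4ra passed (log2 fold change 0.08, adjusted p = 0.0398), and Apoe did not (-1.21, adjusted p = 0.0681). Settings were compared for 34 genes beside the 9 and Apoe, named by the rule from the 5 related lists or as nearest genes. Of these, 19 kept their call in every alternative, 15 lost it after quantile normalization and 8 on leaving out an array. Spib turned to 0.134 (adjusted p = 0.409) with the mean of its probes. The restriction to a level of at least 0.2 was chosen after seeing the data. Rounding to 0.01 limits Arg1, Irf4, Il10 and Il4ra, whose differences are under 2 steps, and no detection flags were used.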
